A study of Mus musculus with 6 samples.

Results

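Expression was examined for 10 genes of lipoprotein triglyceride clearance and fatty acid uptake in brown adipose tissue (BAT), chosen by symbol and role among the 25206 features of the arrays. They comprise lipoprotein lipase (Lpl), its maturation factor Lmf1, its capillary anchor Gpihbp1 and its inhibitor Angptl4, the receptor Vldlr, the fatty acid transporters Cd36, Slc27a1, Slc27a2 and Slc27a4, and the intracellular binding protein Fabp4. All 10 were measured. The samples were the BAT of 6 female FoxP3 DTR B6 mice, with 1 array per mouse. In these animals the regulatory elements of Foxp3 drive a receptor for diphtheria toxin (DT), so that DT kills cells expressing Foxp3, mainly regulatory T (Treg) cells, in the whole body and not only in BAT. Both groups carried this allele. After 1 week alone in a cage at 22°C, mice were given DT (DT 5, DT 9 and DT 16) or phosphate-buffered saline (PBS 12, PBS 18 and PBS 20) into the peritoneum on each of 2 days in a row. The first injection was followed by a change to 4°C, and BAT was taken once the cold had lasted 2 days. The labels give no age, and all 6 mice were in the cold. Foxp3 itself had a weak signal, 4.55, 4.41 and 4.72 in PBS and 4.30, 4.40 and 4.49 in DT (log2), below the array median of 5.10, and its groups overlapped (difference -0.16, adjusted p = 0.587, limma), so that loss of Treg cells could not be read from these arrays. The methods of the study give another cold temperature for these mice, and the labels were followed.

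Brown adipocytes burn fatty acids to make heat, and in the cold much of this fuel is taken from triglyceride-rich lipoproteins in the blood. Lipoprotein lipase is made by adipocytes, folded with the help of Lmf1 in the endoplasmic reticulum, carried across the capillary endothelium by Gpihbp1 and held there, where it hydrolyses triglycerides. Angptl4 inactivates the lipase. The released fatty acids enter cells with the help of Cd36 and the Slc27 family, which also couples fatty acids to coenzyme A, and are bound in the cytosol by Fabp proteins. Vldlr is an endocytic receptor that binds lipoproteins rich in triglycerides.

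The comparison asked whether transcripts of this pathway differ in cold BAT when Treg cells are targeted. None of the 10 genes was called at an adjusted p under 0.05 (limma, Benjamini-Hochberg over all features), against 1.73% of all features (1.29% with a higher and 0.444% with a lower mean in DT). Among features above the median signal, to which all 10 genes belong, the share was 3.05%. At an unadjusted p under 0.05 there were 2 of the 10 genes, Angptl4 with a higher and Slc27a4 with a lower mean in DT. This stands against 13.3% of all features (6.43% higher, 6.83% lower) and 2603 of the 12603 features above the median signal. The differences ranged from -0.21 for Slc27a4 to 0.71 for Angptl4 on the log2 scale, with a median of 0.10 against -0.01 over all features. A total of 8 lay above 0 and 2 below. The smallest difference of any called feature was 0.36, so that 9 of the 10 genes differed by less than any call on these arrays. Without DT 16 the median of the 10 genes was 0.04.

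**Figure D1:**
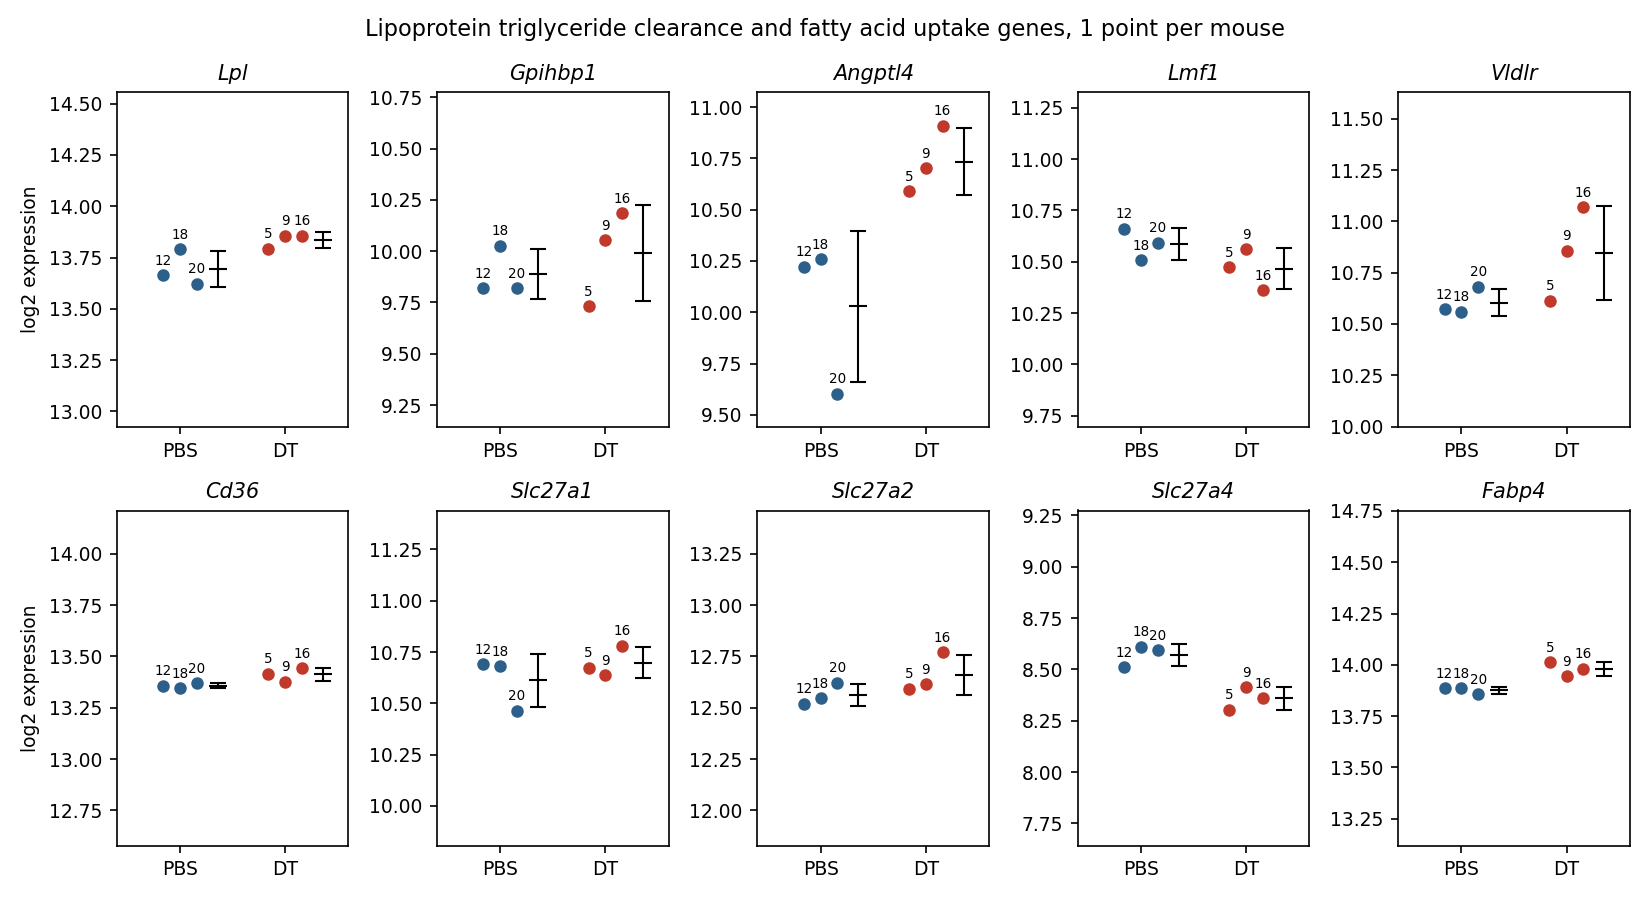
Log2 expression of the 10 genes, with 1 point per mouse (the number is that of the animal) and with bars for mean ± SD of 3 mice. All panels span the same height on the log2 axis. Angptl4 has the widest gap between groups, and Cd36 and Fabp4 vary least between mice.

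In 5 of the 10 genes the DT arrays did not overlap with the PBS arrays, against 18.6% of all features and 26% of those above the median signal. These were Lpl, Angptl4, Cd36 and Fabp4 on the higher side (8.51% of all features) and Slc27a4 on the lower side (10.1%). Lpl, Cd36 and Fabp4 are among the 65 features with a mean above 13, of which 22 had separate groups. The separation was narrow for Lpl, where DT 5 was at 13.792 and PBS 18 at 13.791, and for Cd36, where DT 9 was at 13.377 and PBS 20 at 13.369. The count was 4 with quantile normalization repeated, 3 with cyclic loess and 1 when arrays were scaled to adipocyte markers. The share of all features was not determined at these settings. The scaling to adipocyte markers moved the median of all features from -0.01 to -0.05. It lowered every difference by the same amount. The small ones became 0.06 for Gpihbp1, 0.02 for Cd36, 0.05 for Slc27a1, 0.06 for Slc27a2 and 0.07 for Fabp4. The negative ones became larger in size, at -0.16 for Lmf1 and -0.25 for Slc27a4. Plin4, an adipocyte marker used for the scaling, was itself higher in DT by 0.50, and its part in the shift was not tested.

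The transcript that differed most was Angptl4, the lipase inhibitor, which is induced by fasting and by fatty acids. It was at 10.22, 10.26 and 9.60 in PBS 12, PBS 18 and PBS 20 and at 10.59, 10.70 and 10.91 in DT 5, DT 9 and DT 16. The groups did not overlap, although PBS 20 lay well below the other two PBS mice. The means were 10.73 ± 0.16 in DT and 10.03 ± 0.37 in PBS (SD, n = 3), a difference of 0.71 (SE 0.18, 95% interval 0.27 to 1.14) or 1.63-fold. With limma this did not pass over all features (unadjusted p = 0.00604, adjusted p = 0.146). Without PBS 20 the difference was 0.49 (adjusted p = 0.178), and the adjusted p stayed between 0.0995 and 0.392 over all 17 alternative settings.

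Lpl, the lipase itself, was at 13.66, 13.79 and 13.62 in the PBS mice and at 13.79, 13.86 and 13.86 in the DT mice. All DT values were at or above the highest PBS value to 2 decimals. The difference was 0.14 (SE 0.08, 95% interval -0.04 to 0.32, adjusted p = 0.501, limma). Lpl ranked 10th among all features by mean signal, near the top of the signal range. In the 65 features with a mean above 13 the median absolute difference was 0.04, against 0.0923 over all features, and 1 of them was called. The brightest feature, Gpd1, was at 14.10 in every array, and quantile normalization gives the arrays nearly the same sorted values. Whether the differences and spreads of such features were limited by this step, the scanner or the probes was not tested.

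The difference of Lpl and Angptl4 within each array sets the lipase against its inhibitor. It was 3.44, 3.53 and 4.02 in the PBS mice and 3.20, 3.16 and 2.95 in the DT mice. The groups did not overlap, and the mean was 3.10 ± 0.14 in DT and 3.66 ± 0.31 in PBS, a difference of -0.56 (n = 3, exact permutation test over 20 relabelings, 2-sided, p = 0.1, the smallest value that 3 against 3 mice can give). Such a difference holds the response of the probes to 2 genes, so that only its change between groups can be read. Angptl4 alone differed by 0.71 and Lpl by 0.14, so that most of this change is that of Angptl4. The limit named for Lpl at the top of the signal range applies here too.

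Gpihbp1, the protein that carries the lipase to the capillary lumen, was at 9.82, 10.03 and 9.82 in PBS and 9.73, 10.05 and 10.19 in DT. DT 5 was the lowest of the 6 arrays and DT 16 the highest, and the groups overlapped. The difference was 0.10 (SE 0.13, 95% interval -0.20 to 0.41, adjusted p = 0.827, limma), and with 1 mouse left out it ranged from 0.0037 (without DT 16) to 0.23 (without DT 5). Lmf1, needed for the folding of the lipase, was at 10.66, 10.51 and 10.59 in PBS and 10.47, 10.56 and 10.36 in DT, also with overlap (difference -0.12, SE 0.08, 95% interval -0.32 to 0.07, adjusted p = 0.634, limma, and -0.07 without DT 16).

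Vldlr was at 10.57, 10.56 and 10.68 in the PBS mice and at 10.61, 10.86 and 11.07 in the DT mice. The PBS values were close together (SD 0.07), whereas the DT values were spread (SD 0.23), with DT 5 inside the PBS range. The difference of 0.24 (SE 0.12, 95% interval -0.04 to 0.52) did not pass the test (adjusted p = 0.462, limma). It was 0.36 without DT 5 and 0.13 without DT 16.

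**Figure D2:**
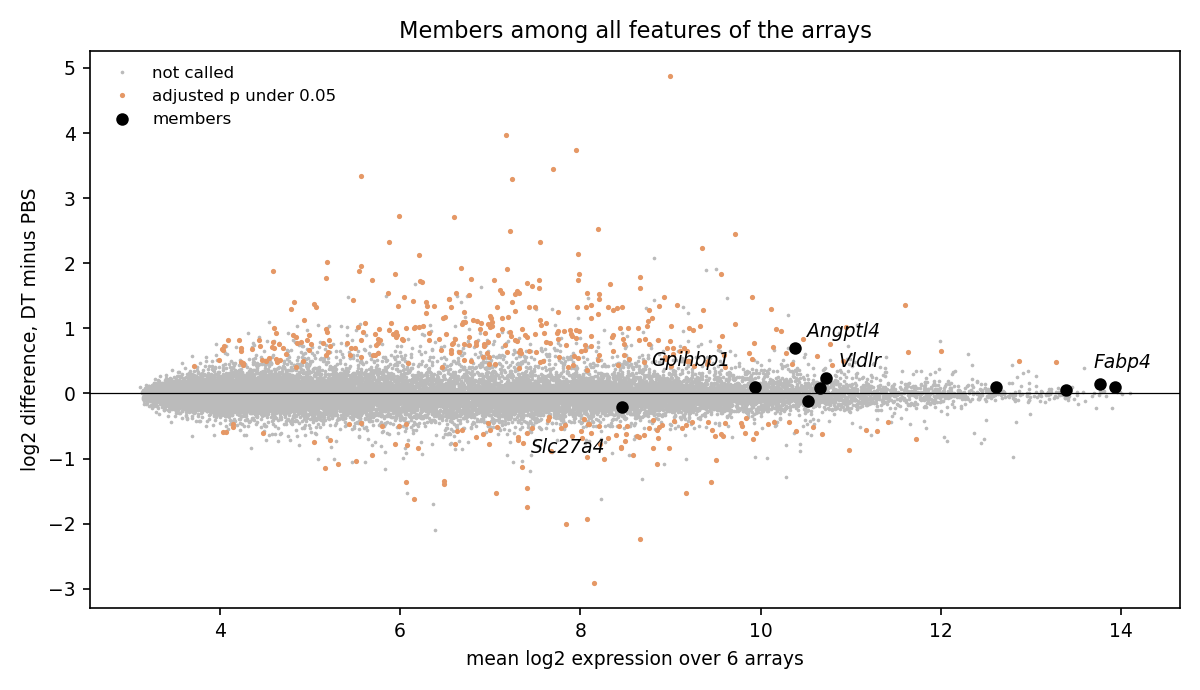
Log2 difference (DT minus PBS) of all 25206 features against their mean log2 expression over 6 arrays, with features at an adjusted p under 0.05 in orange and the 10 genes in black. The genes lie above the median signal of 5.10, and Angptl4 at 0.71 is the farthest of them from 0.

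Cd36, a fatty acid receptor of adipocytes, endothelium and macrophages, was at 13.36, 13.35 and 13.37 in PBS and 13.42, 13.38 and 13.44 in DT. It differed by 0.05 (SE 0.07, 95% interval -0.10 to 0.21, adjusted p = 0.814, limma). Its residual SD of 0.03 was at the 0.77th percentile of all features, and it ranked 28th by mean signal, where the limit named for Lpl applies. Fabp4, the main fatty acid binding protein of adipocytes, was as even, at 13.89, 13.89 and 13.86 in PBS and 14.01, 13.95 and 13.98 in DT (difference 0.10, SE 0.07, 95% interval -0.05 to 0.26, adjusted p = 0.599, limma). It ranked 5th among all features, near the top of the range like Lpl. The number of the 10 genes with an unadjusted p under 0.05 depended on the variance model. It was 5 with a robust prior that followed the signal intensity (Lpl, Angptl4, Vldlr, Slc27a4 and Fabp4) and 3 without moderation (Angptl4, Slc27a4 and Fabp4), against 2 in the standard fit, and none of the 10 passed after adjustment in any of these. The share of all features at this unadjusted threshold was not determined under the other models, so these counts lack a background. After adjustment 659 features were called with the robust prior, 0 without moderation and 436 in the standard fit.

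The 3 Slc27 genes among the 10 encode fatty acid transport proteins with acyl-CoA synthetase activity, and none was called. Slc27a4, found in many tissues and known from fatty acid uptake in gut and skin, was at 8.51, 8.61 and 8.59 in PBS and at 8.30, 8.41 and 8.36 in DT. The DT mice all lay below the PBS mice, with a difference of -0.21 (SE 0.07, 95% interval -0.38 to -0.04) or 1.16-fold, which did not pass over all features (unadjusted p = 0.0204, adjusted p = 0.26, limma). The difference lay between -0.25 and -0.18 over the 17 alternatives.

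Slc27a1, the insulin-sensitive transporter of fat and muscle, was at 10.69, 10.68 and 10.46 in PBS and 10.67, 10.64 and 10.78 in DT. The groups overlapped (difference 0.09, SE 0.09, 95% interval -0.13 to 0.30, adjusted p = 0.783, limma, and 0.04 without DT 16 and 0.01 without PBS 20). Slc27a2, which also activates very long-chain fatty acids and is best known from liver and kidney, was at 12.52, 12.55 and 12.62 in PBS and 12.59, 12.61 and 12.77 in DT, again with overlap (difference 0.10, SE 0.08, 95% interval -0.09 to 0.28, adjusted p = 0.708, limma, and 0.04 without DT 16). Whether the responses of the Slc27 genes differ from each other was not tested.

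DT 16 was the array with the highest value in 7 of the 10 genes (Lpl, shared with DT 9, Gpihbp1, Angptl4, Vldlr, Cd36, Slc27a1 and Slc27a2) and the lowest in Lmf1. PBS 20 had the lowest value in 4 (Lpl, Angptl4, Slc27a1 and Fabp4). Skeletal muscle markers had a mean of 5.83 in DT 16, against 9.08 and 9.21 in the other two DT mice and 7.23 to 9.11 in PBS, a range of 10.4-fold, and did not separate by treatment. With the muscle mean as a covariate Angptl4 differed by 0.70 (adjusted p = 0.193), Vldlr by 0.24 and Slc27a4 by -0.21 (limma). Hepatocyte markers ranged from 4.61 in PBS 20 to 6.42 in PBS 12, and with them as a covariate Angptl4 differed by 0.72 and Slc27a2 by 0.09.

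The 2 brightest brown adipocyte markers were Ucp1, the uncoupling protein, at a mean of 13.999 in DT and 14.009 in PBS, and Elovl3 at 13.47 and 13.40. Ucp1 ranked 2nd among all features by mean signal, near the top of the range like Lpl. No brown (0 of 10) or general adipocyte marker (0 of 9) was called. Groups did not overlap in 6 of the brown markers, beside 26% of features above the median signal, to which all 10 belong. The DT mice were lower in 5 of these, among them Prdm16 (-0.26), and higher in Dio2 (0.40). The mean of the general adipocyte markers was 12.23 to 12.41 in DT and 12.21 to 12.33 in PBS, and Pnpla2 was at 12.98 in both groups. These markers were not all even. Plin4 was higher in DT by 0.50 (adjusted p = 0.0916, limma), the only general adipocyte marker without overlap of the groups. Retn was spread within both groups (SD 0.49 in DT and 0.52 in PBS). None of 12 endothelial markers was called, and their mean was 9.49 to 9.56 in DT and 9.50 to 9.58 in PBS. The 2 brightest differed by 0.05 (Cdh5) and 0.09 (Pecam1), while 7 of the 12 had a lower mean in DT. Groups did not overlap in 3, with DT lower for Kdr (-0.24) and Emcn (-0.27) and higher for Esam (0.21). Macrophage markers, of which 4 of 11 rose beside 1.29% of all features, had a mean of 7.98 to 8.13 in DT and 6.97 to 7.28 in PBS. Lgals3 rose by 2.45, Ctss by 1.91 and Cd68 by 1.83. The groups overlapped for Csf1r (0.18), Mertk (0.18), Cd14 (0.03) and C1qa (-0.03). Stromal markers rose in 3 of 10 cases (Col3a1 by 1.16, Col1a1 by 1.07, Pdgfra by 0.66), with a mean of 10.01 to 10.21 in DT and 9.53 to 9.83 in PBS. Among the rest, Cspg4 (-0.13) and Rgs5 (-0.06) had lower means in DT, with overlap of the groups. Pdgfra kept its call when PBS 18 was left out and lost it on leaving out each of the other 5 mice (adjusted p = 0.0667 to 0.108) and with either covariate (adjusted p = 0.0522 and 0.0551). The part of these cells in the values of the 10 genes was not tested, and in bulk tissue fewer cells of a type and less RNA per cell cannot be told apart. Of 9 lymphocyte markers, 7 lay below the array median, none was called and their mean was 4.71 to 5.18 in DT and 5.10 to 5.13 in PBS.

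**Figure D3:**
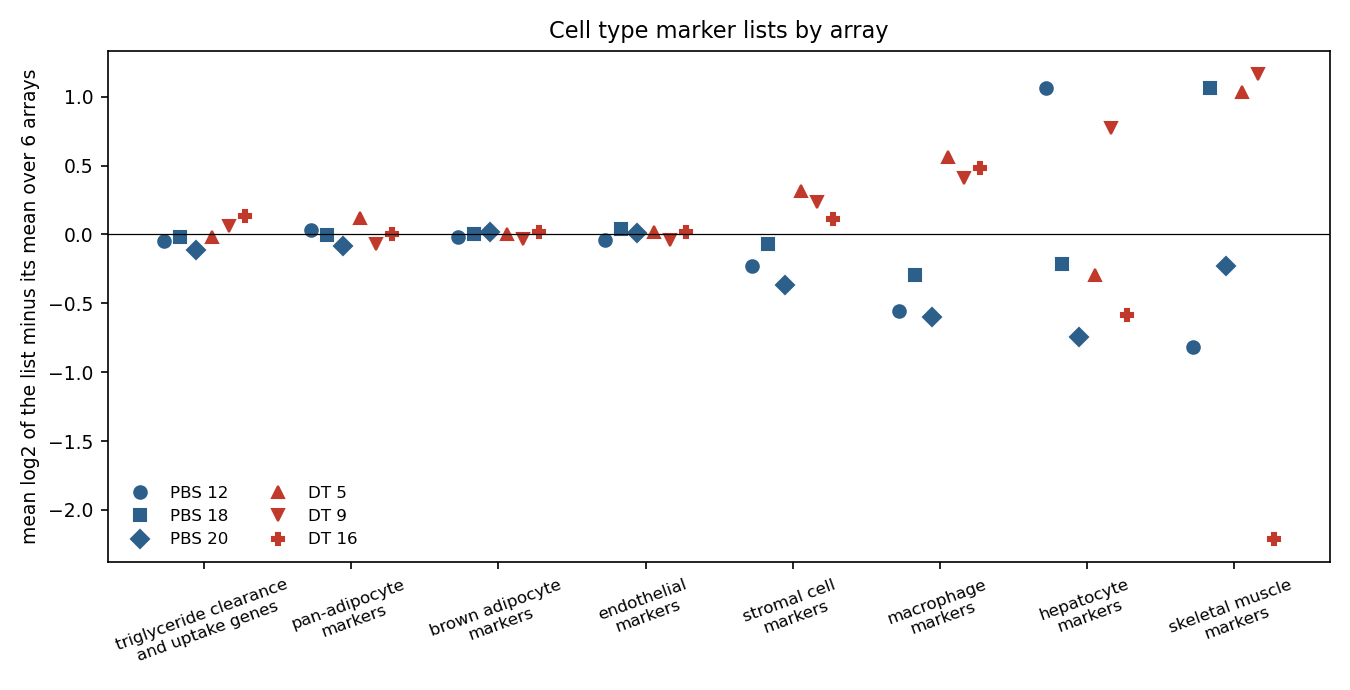
Mean log2 expression of the 10 genes and of 7 cell type marker lists in each array, minus the mean of that list over 6 arrays. The list means of brown adipocyte and endothelial markers differ by at most 0.05 and 0.08 between arrays. Those of pan-adipocyte markers differ by 0.21, near the 0.25 of the 10 genes. The means of macrophage and stromal markers are higher in every DT array, and those of muscle and hepatocyte markers vary between mice of both groups.

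Around the 10 genes, 57 of 64 further genes of the pathway were measured, of which 1 rose and 1 fell in DT. This stands beside 1.73% of all features called and 3.05% of those above the median signal. The remaining 7 of the 64 were not analysed here. The median difference of the 57 genes was -0.02. A total of 13 had an unadjusted p under 0.05, beside 13.3% of all features and 2603 of the 12603 above the median signal. In 17 the groups did not overlap, beside 18.6% of all features and 26% of those above the median signal. Of the 57 genes, 16 lay below that median.

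**Figure D4:**
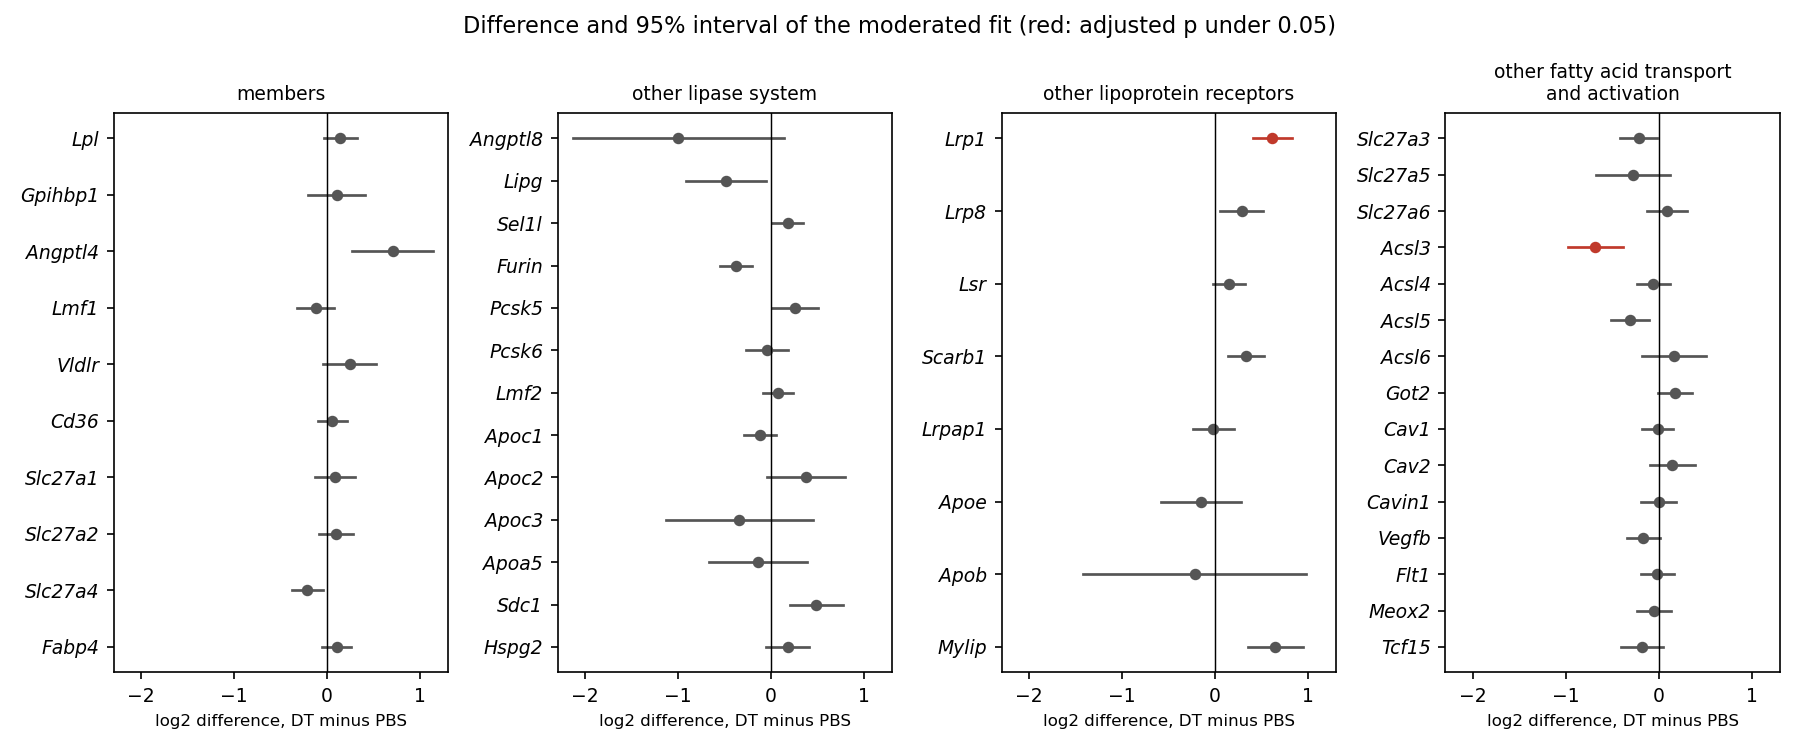
Log2 difference (DT minus PBS) with its 95% interval from the moderated fit, for the 10 genes and for 3 lists of further pathway genes, in red where the adjusted p was under 0.05. Red marks Lrp1 at 0.62 and Acsl3 at -0.68, and none of the 10 genes, which the panel headed members shows.

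Of 8 lipoprotein receptor and ligand genes, Lrp1 rose. This large endocytic receptor takes up lipoprotein remnants and is made by macrophages, fibroblasts and adipocytes. It was at 9.93, 10.08 and 9.89 in PBS and at 10.56, 10.50 and 10.70 in DT, with a clear gap between the groups (difference 0.62, SE 0.09, 1.54-fold, adjusted p = 0.0229, limma). The macrophage and stromal marker lists separate the groups in the same direction, and their part in this difference was not tested. The call was lost without DT 5, DT 9, DT 16, PBS 12 or PBS 20, where 2 mice stood in 1 group (adjusted p = 0.0628 to 0.0943), and held without PBS 18 (adjusted p = 0.0316). Apoe, a ligand of these receptors, was at 10.85 ± 0.34 in DT and 10.99 ± 0.22 in PBS (adjusted p = 0.825). Chosen after their values were seen, Mylip, the ubiquitin ligase that targets Vldlr for degradation, differed by 0.65 (adjusted p = 0.0595) and the lipoprotein receptor Scarb1 by 0.34 (adjusted p = 0.118), each without overlap of the groups. Both passed when the prior was robust and followed the signal intensity (adjusted p = 0.00998 and 0.0338).

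Of 15 genes of fatty acid transport and activation, Acsl3 fell. It is an acyl-CoA synthetase of the endoplasmic reticulum and lipid droplets. It was at 8.64, 8.84 and 8.49 in PBS and at 8.06, 7.76 and 8.09 in DT, again with no overlap (difference -0.68, SE 0.13, adjusted p = 0.0498, limma). This call lay at the threshold and did not hold on leaving out any single mouse (adjusted p = 0.0932 to 0.165), with either marker covariate (adjusted p = 0.086 and 0.0889), with cyclic loess (0.062) with array weights (0.0536) and without moderation (0.253).

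No gene of the other lipase list (0 of 13, median difference -0.04) was called. Furin, a protease that cleaves the lipase, was nearest, at 10.37, 10.46 and 10.37 in PBS and 10.09, 10.01 and 9.97 in DT (difference -0.37, SE 0.07, adjusted p = 0.0628, limma). Its groups did not overlap, and it passed with the features below the median signal left out (adjusted p = 0.0415) and with the robust prior (adjusted p = 0.00927), but not with 1 mouse left out (adjusted p = 0.104 to 0.222). The proteoglycan Sdc1 differed by 0.49 (adjusted p = 0.133).

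Angptl8, a secreted regulator of the lipase that is induced by feeding, was singled out after its values were seen. It was at 11.09 and 11.32 in PBS 12 and PBS 20 but at 9.30 in PBS 18, and at 9.75, 9.56 and 9.42 in DT. PBS 18 thus lay below all DT mice, and the difference of -0.996 (SE 0.48) did not pass (adjusted p = 0.451, limma). It was -1.63 without PBS 18 (adjusted p = 0.00707), the mouse that goes against the difference, and -0.62 without PBS 20 (adjusted p = 0.717), with the other 4 omissions between -1.08 and -0.73 (adjusted p = 0.559 to 0.705). The mice were in a random-fed state when killed, as the methods give it.

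**Figure D5:**
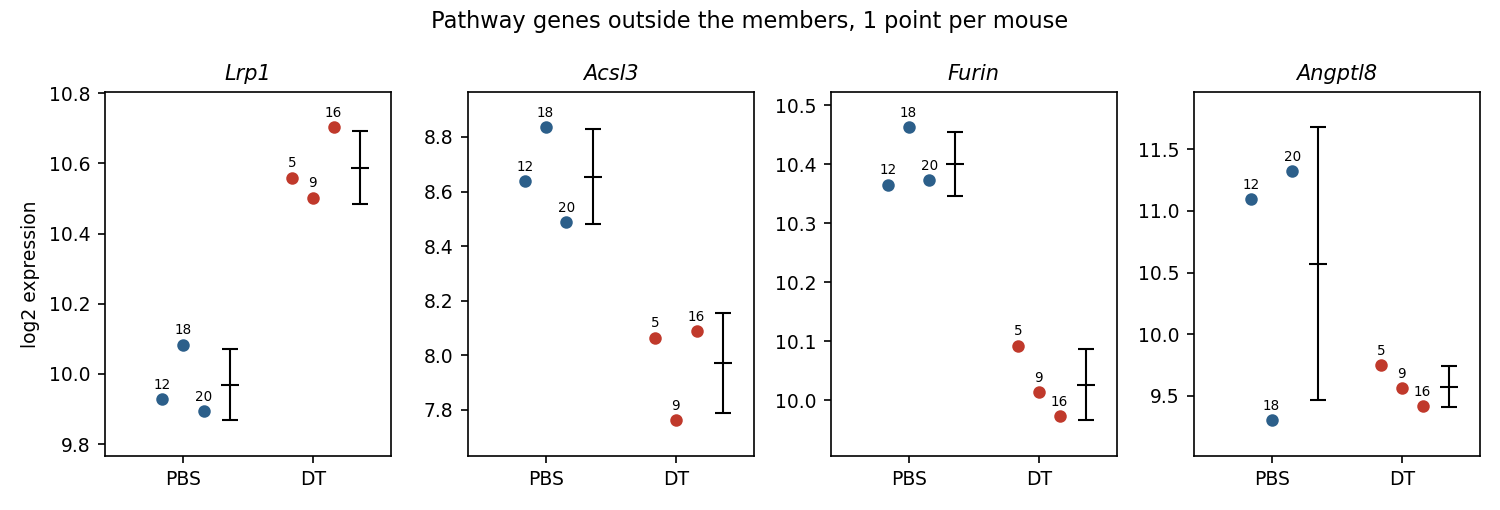
Log2 expression of 4 pathway genes outside the 10, with 1 point per mouse and with bars for mean ± SD of 3 mice. Each panel has its own scale. Lrp1, Acsl3 and Furin have separate groups, and Angptl8 in PBS 18 lies with the DT mice.

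None of 11 further binding protein genes was called (median difference -0.08). Rbp4, a carrier of retinol made in liver and fat, differed by -0.45 (adjusted p = 0.278). Fabp5, the family member shared by adipocytes and macrophages, was at 5.76, 6.24 and 5.53 in PBS and 5.56, 5.22 and 5.58 in DT (difference -0.39, adjusted p = 0.451, limma). Its mean signal of 5.65 was only at the 55.9th percentile of all features, and its residual SD at the 93.7th. Within each array Fabp5 minus Fabp4 was lower in DT than in PBS by 0.49 on the log2 scale in the mean, with no overlap of the groups (-8.13, -7.65 and -8.32 in PBS against -8.45, -8.72 and -8.40 in DT, exact permutation test, 2-sided, p = 0.1, again the smallest possible). Without PBS 18 this difference was -0.30 (exact permutation p = 0.2) and that of Fabp5 alone was -0.19.

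Of 10 transcriptional regulators of the pathway 0 were called with limma and 0 had an unadjusted p under 0.05. Their groups overlapped in all 10 cases. Pparg, which drives many of these genes in adipocytes, was at 12.22 ± 0.03 in DT and 12.21 ± 0.01 in PBS (difference 0.01, 95% interval -0.15 to 0.16, adjusted p = 0.981, limma). Cebpa, a partner of Pparg in fat cell differentiation, differed by -0.11 (adjusted p = 0.816). The coactivator Ppargc1a was at 11.47, 12.05 and 11.86 in PBS and 12.01, 12.10 and 12.37 in DT, with overlap (difference 0.37, adjusted p = 0.396).

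The features most like Angptl4 over the 6 arrays, by the root mean square distance of log2 values centred on each gene's mean, were Rps15 (0.08), Iqcj (0.12) and the kinase Pim3 (0.12), of 23184 other named features. Pim3 was at 8.29, 8.42 and 7.93 in PBS and 8.54, 8.92 and 8.97 in DT, so that PBS 20 was lowest here too. Rps15 and Iqcj had weak signals, with means below 5.10 in both groups, and none of the 3 was called (adjusted p = 0.123 to 0.198).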

How the data were processed

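Biotin-labelled cRNA from total RNA of BAT of 6 mice was read on Affymetrix arrays, whose design was not verified. The authors deposited log2 expression values, 1 per Entrez gene, made with a custom chip definition file, RMA (submitters' processing notes) and quantile normalization (methods). The genome build is not given in the sources used here, and no coordinates are printed. The sorted values of 5 arrays were identical and those of DT 5 within 0.00179, so a shift of all genes in 1 group cannot be seen. Arrays have no read depth, and their number limits the precision.

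Features were named by Entrez number (23185 of 25206). DT was tested against PBS with limma 3.58.1 in R 4.3.3 (lmFit, eBayes, 2-sided, Benjamini-Hochberg over all features, threshold 0.05), a linear model in place of the study's mixed-model analysis of variance, whose terms are not given. The procedure was tested on simulated data. Each array was taken as 1 mouse. Groups and animal numbers came from the titles. Every difference is DT minus PBS on the log2 scale.

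The 10 genes and the 13 other lists (5 of the pathway, 8 of cell types) were chosen with earlier results of these data known. The text names all 10 genes, the called genes of each pathway list or the 2 with the smallest p, Fabp5, Apoe, Pparg and Ppargc1a, up to 3 called genes of each marker list or the 2 brightest, and the 3 features nearest to the leading gene. Further marker genes, such as Prdm16, Dio2, Plin4, Kdr and Emcn, were named after their values were seen. Alternatives were repeated quantile normalization, median centring, cyclic loess, scaling to adipocyte markers, filters on dim features (lowest 25%, below the median), a robust prior with intensity trend, array weights, no moderation and leaving out each array. Muscle and hepatocyte marker covariates were added after the data were seen.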

Additional observations from a re-analysis of the deposited data

How the results depend on the processing

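The 10 genes kept their direction in all 170 fits of a single gene under 17 alternatives, and 0 were called in any of them. The filters on dim features, the robust prior and the fit without moderation leave each difference as it was, so its direction could not change there. Repeated quantile normalization and median centring changed the differences little (Lpl 0.1426 and 0.1430, against 0.1430). The median difference of the 10 genes lay between 0.042 (without DT 16) and 0.12 with 1 array left out. The count with separate groups was 4 with repeated quantile normalization, 3 with cyclic loess and 1 with scaling to adipocyte markers. With 1 array left out it was 5 to 7, but it could not fall there, since separate groups stay separate when an array is removed. The share of all features with separate groups was not determined under these alternatives. The count of called features was 659 with an intensity trend and robust prior, 0 without moderation, 281 with the hepatocyte covariate and 135 to 374 with 1 array left out. Of the further pathway genes 4 were called without features below the median signal, 6 with the trend and robust prior, 1 with cyclic loess, 1 with array weights, 1 with either marker covariate, 0 without moderation and 0 to 2 with 1 array left out. Genes with differences near 0 or wide spread changed sign without being called: with scaling to adipocyte markers Pparg (-0.029), Gpd1 (-0.037) and Pnpla2 (-0.033), with cyclic loess Gpd1 (-0.014) and Pnpla2 (-0.0010), with array weights Myh4 (-0.23). With 1 array left out the ranges were -0.24 to 0.023 for Cebpa, -0.0063 to 0.020 for Pparg, -0.025 to 0.14 for Elovl3, -0.023 to 0.044 for Pnpla2, -0.72 to 1.14 for Acta1, -0.53 to 1.29 for Myh4, -0.84 to 1.66 for Alb and -0.45 to 0.14 for Apoa2. The causes were not tested, other than that fits with 1 array left out hold fewer samples. No paired analysis was possible because the groups share no animal number. Lpl, Fabp4 and Cd36 lie among the 65 features with a mean above 13.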

Other observations

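Skeletal muscle and hepatocyte genes, whose list means served only as covariates for the 10 genes, differed widely between mice of both groups. The muscle actin Acta1 was at 9.28, 11.002 and 9.75 in PBS 12, PBS 18 and PBS 20 and at 11.02, 11.28 and 7.57 in DT 5, DT 9 and DT 16, and the myosin Myh4 followed the same order within DT, at 10.39, 10.79 and 7.15. Albumin (Alb) was at 10.55, 8.60 and 5.55 in PBS and 8.11, 10.90 and 7.20 in DT, and Apoa2 ranged from 5.95 in DT 5 to 7.14 in DT 9. DT 16 was also lowest for the lymphocyte transcripts Ighm (6.26, against 7.39 to 8.20 in the other arrays) and Trac (6.15, against 7.39 to 7.91). None of these genes was called.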
